A study of Mus musculus with 2 samples.

Results

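Oxidative phosphorylation is the process by which mitochondria turn the energy of electrons taken from nutrients into ATP. Complexes I, III and IV of the inner membrane pass electrons to oxygen and pump protons, complex II feeds electrons in from succinate without pumping, and complex V, the ATP synthase, uses the proton gradient to make ATP. A small core of subunits of complexes I, III, IV and V is encoded by mitochondrial DNA, and all other subunits, with every subunit of complex II, are encoded in the nucleus. In the lung, AT2 cells make surfactant, a task that needs much ATP, while multiciliated cells spend ATP on the beating of their cilia. Some subunits of complex IV exist as general and tissue-restricted isoforms, the latter best known from heart and skeletal muscle.

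The nuclear-encoded genes of oxidative phosphorylation were taken by symbol, as genes whose names begin with Ndufa, Ndufb, Ndufc, Ndufs, Ndufv, Uqcr, Atp5, Sdh or Cox4 to Cox8, without names ending in -ps and without Cox4i2. This gave 96 of the 32285 genes in the count files. They were 36 subunits of complex I (NADH dehydrogenase), 4 of complex II (succinate dehydrogenase), 8 of complex III (cytochrome bc1), 17 of complex IV (cytochrome c oxidase, with Ndufa4 counted here) and 17 of complex V. A further 12 were assembly factors, which help to build a complex without staying in it, and 2 were placed in no complex, Ndufa4l2 and Cox7a2l. Beside them stood the 13 protein-coding genes of mitochondrial DNA, whose symbols begin with mt-.

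The data were 1 droplet-based 3′ scRNA-Seq library of mouse lung cells from floxed Cebpa fl/fl mice, called the control library, and 1 from Cebpa ΔSftpc mice, called the KO library. In the latter mice Cebpa is deleted by a tamoxifen-inducible Cre recombinase driven from the Sftpc locus, which is active in AT2 cells. Lungs were taken 26 weeks after the first tamoxifen dose, given as 5 daily injections of 75 mg/kg to mice of both sexes that were about 3 months old at the start, and cells of 3 mice per genotype were pooled. A further round of injections is described for experiments of over 3 months, and whether the controls carried Cre is not given in the sources used here. The barcodes do not tell the mice apart, and each genotype counts as a single sample. Differences between genotypes have no replicate check, no p-value was computed, and the intervals given below cover counting error only.

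After barcodes with fewer than 200 genes or more than 20% mt- counts were left out, 11487 of 11721 control and 13238 of 13373 KO barcodes remained, with a median of 4835 and 2607 unique molecular identifiers (UMIs, each 1 captured RNA molecule), and 45 barcodes occurred in both libraries. A cell was placed in the gate of the cell type of which it showed the most marker genes, at least 3 and without a tie, which gated 88.8% and 83.3% of the cells. In 13 gates each library had at least 50 cells. Among these 13 gates, lineage genes outside the marker lists were highest in the matching gates, with Epcam in epithelial, Pecam1 in endothelial and Col1a2 in fibroblast gates. Pecam1 was also at 523 and 470 CPM (UMIs of a gene per 1000000 UMIs) in control and KO platelets or megakaryocytes. Some immune gates of the KO library held such genes too. Epcam was at 145 CPM in alveolar macrophages and 92.5 CPM in dendritic cells, and Col1a2 at 321 CPM in NK cells. The AT2 and AT1 gates of the KO library also held endothelial RNA: Pecam1 stood at 210 CPM in the KO AT2 gate against 52.5 CPM in the control, and at 421 against 84.6 CPM in the AT1 gates. Ptprc, which encodes the leukocyte antigen CD45, was higher in each of the 13 compared gates of the KO library, where it ranged from 18.0 CPM in arterial cells to 132 CPM in platelets, against 0.495 to 4.01 CPM in the control library. It stood at 86.4 against 2.12 CPM in AT2, 67.6 against 2.299 CPM in ciliated, 48.9 against 1.24 CPM in general capillary and 83.2 against 2.03 CPM in aerocyte gates. Sftpc was at 2769 CPM in the KO AT1 gate against 949.7 CPM in the control. The part of this RNA from other cells in the differences between libraries was not tested. The targeted gene, Cebpa, stood in the AT2 gate at 152 CPM in the control library (1431 UMIs, in 399 of 524 cells) and at 108 CPM in the KO library (234 UMIs, in 104 of 430 cells). It was thus lower but not lost in the gate as a whole. Among AT2 cells with at least 5000 UMIs 88.0% and 61.2% held a Cebpa UMI, where general capillary cells of that depth held one in 7.91% and 9.69%. Among AT2 cells with under 2000 UMIs the order was the other way. There Cebpa was at 51.8 CPM in 62 control cells (3 UMIs) and at 112 CPM in 265 KO cells (36 UMIs). General capillary cells of that depth were at 6.99 and 40.0 CPM (5 and 44 UMIs).

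Over all kept cells the 96 members made up 1.76% of the UMIs in the control library and 1.59% in the KO library, and the mt- genes 3.64% and 3.51%. All 96 members had at least 1 UMI in the KO library and 95 in the control library. Levels below are shares of all UMIs of the cells in a gate, summed over cells. In 3′ libraries a molecule gives 1 tag whatever its length, so these CPM are not divided by gene length. Many subunits have processed pseudogenes of near-identical sequence, and reads that fit more than 1 gene can go uncounted, so levels of different members are compared only roughly.

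Multiciliated cells held the most transcripts of these genes. In the control library the summed members took 2.49% of the UMIs of the ciliated gate, 2.08% in AT1 cells, the thin gas-exchange cells of the alveolus, and 1.91% in smooth muscle. The place of AT1 cells depended on depth. They stood at 3.18% among cells with under 2000 UMIs and at 1.845% among the 37 cells with at least 5000 UMIs. Smooth muscle and venous cells of that greater depth were at 1.896% and 1.91%. AT2 cells stood in the lower part of the order at 1.65%, beside arterial endothelium at 1.65%, and the lowest gates were platelets or megakaryocytes at 1.503% and adventitial fibroblasts at 1.43%. The highest compared gate was thus 1.74 times the lowest in this library and 1.503 times in the KO library. Smooth muscle and venous cells (1.88%) had overlapping counting intervals, as had pericytes (1.74%), general capillary cells (1.74%), lymphatic cells (1.73%) and aerocytes (1.73%), and as had AT2 and arterial cells. The place of AT2 cells depends on their most abundant RNAs. In the control library the 10 highest genes took 32.9% of the UMIs of the AT2 gate, against 8.34% in ciliated and 13.9% in arterial cells. Sftpc alone stood at 187990 CPM in the AT2 gate. With Sftpc out of the total the share of the members there would be higher, and the order without it was not computed.

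In the KO library the ciliated gate was again the highest, at 2.14%, and adventitial fibroblasts were at 1.42%. Immune gates with at least 50 cells were found in this library only. Classical monocytes were at 2.003%, NK cells at 1.94% and alveolar macrophages at 1.90% (498 cells, against 4 in the other library). At the other end were B cells at 1.31% and neutrophils at 1.09% (505 cells, against 2), the latter a cell type known for relying on glycolysis.

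The order of the mt- transcripts was a different one. AT2 cells had the highest summed mt- level in both libraries, 5.96% and 6.16% of UMIs, and neutrophils the lowest at 1.68%. AT2 cells thus had the fewest nuclear transcripts per mt- transcript of all gates, 0.276 and 0.270, while aerocytes, the large capillary endothelial cells that cover most of the gas-exchange surface, had 0.690 in the control library and NK cells 0.825 in the KO library. Across gates the nuclear and the mt- levels were weakly related, with a Pearson r of 0.21 over 13 gates and of 0.17 over 22 gates, each over gates of 1 library that share its depth and free RNA.

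**Figure D1:**
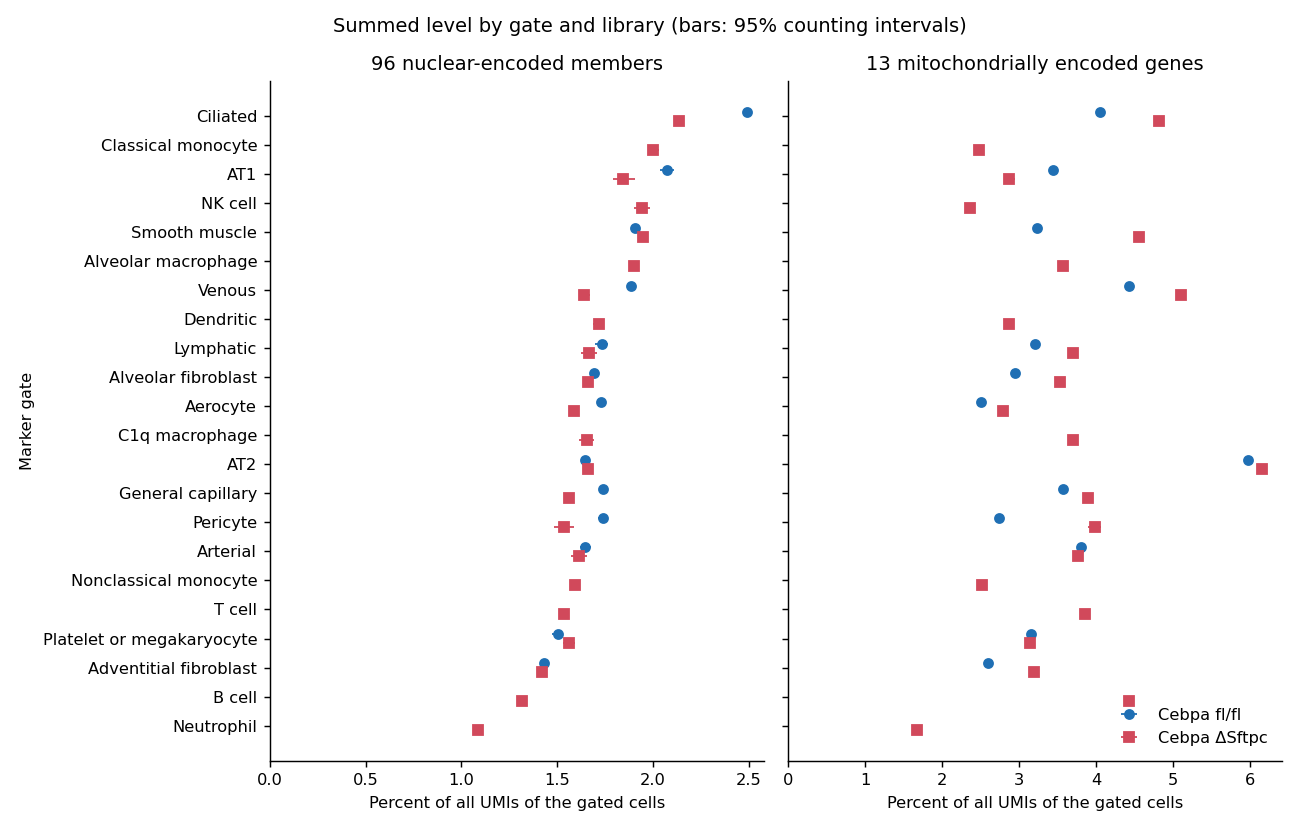
Summed level of the 96 nuclear-encoded members (left) and of the 13 mt- genes (right) in each marker gate, as percent of all UMIs of the gated cells, for the control (Cebpa fl/fl, blue circles) and KO (Cebpa ΔSftpc, red squares) libraries, with bars for 95% counting intervals. The ciliated gate was highest for the nuclear members (2.49% and 2.14%) and the AT2 gate for the mt- genes (5.96% and 6.16%), and immune gates have a value in the KO library only.

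The complexes kept nearly the same proportions in most gates of the control library. Of the members' UMIs in the control library, complex I took between 28.6% (platelets) and 33.6% (alveolar fibroblasts), complex III between 8.75% and 10.2%, and complex V between 23.9% and 29.6%. Complex II was the least abundant, with 1.26% to 2.45%. Complex IV as classed here was the most variable of the large ones, from 20.2% in pericytes to 34.7% in platelets. The pericyte value depends on the classing. There Ndufa4l2, placed in no complex, took 9.20% of the members' UMIs, and the related gene Ndufa4, counted in complex IV, took 0.235%. The class of Ndufa4l2 and Cox7a2l ran from 0.577% in ciliated cells to 10.2% in pericytes.

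Within complexes the highest members over all kept cells were the same in both libraries. They were Ndufa7 in complex I (334 CPM in the control and 250.2 CPM in the KO library), Sdhb, the iron-sulfur subunit of complex II (122 and 109 CPM), Uqcrh, the hinge protein of complex III (339 and 365 CPM), Cox4i1 in complex IV (582 and 534 CPM) and Atp5e, the epsilon subunit of the ATP synthase (481 and 482 CPM). The lowest were Ndufs1 in complex I (37.2 and 39.6 CPM), Uqcrfs1, the Rieske protein of complex III (76.1 and 72.0 CPM), and Cox8c, with 0 and 2 UMIs. In complex II the lowest was Sdhd in the control library (60.0 CPM) and Sdhc in the other (55.1 CPM), both membrane anchors. In complex V it was Atp5g3 (143 CPM) in the control library and Atp5o (143 CPM) in the other. The assembly factors were far lower, from Ndufaf8 at 67.7 and 57.7 CPM to Ndufaf5 at 6.05 and 6.07 CPM. Cox7b2 had 13 and 3 UMIs, too few to place.

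Members differed in their order over the gates. In the control library ciliated cells were the highest of the 13 gates for 45 of 95 members, AT1 cells for 14 and smooth muscle for 9, and platelets were the lowest for 43 and adventitial fibroblasts, the lowest gate for the sum, for 16. The median member differed 2.64-fold between its highest and lowest gate. For 20 members the range was under 2-fold, for 25 it was 4-fold or more and for 7 it was 10-fold or more. Sums were floored at 3 counts for these ranges and orders. Cox7b2, with 13 UMIs in this library and 0 in AT1 cells, counts among the 7 and among the 14 of AT1 cells only through this floor. In the KO library, with 22 gates, ciliated cells were the highest for 20 of 94 members and neutrophils the lowest for 45. These counts of highest and lowest gates were not made within classes of depth. They were not made over all genes, so they have no background. Relative to a gate's own sum, 51 of 1082 pairs of member and gate in the control library and 53 of 1609 in the other departed by more than 1 on the log2 scale. These counts of departures were not made over all genes either and have no background. The pairs that departed most were of isoforms: Ndufa4l2 in pericytes and Cox6a2 in AT2 cells led in both libraries.

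Pericytes, the contractile cells that wrap capillaries, expressed Ndufa4l2 (ENSMUSG00000040280, mm10 chr10:127514967-127517154) in place of Ndufa4. Ndufa4 (chr6:11900292-11907497) encodes a subunit of complex IV that was first assigned to complex I, and Ndufa4l2 is its paralog, known as a gene induced by low oxygen. In the control library Ndufa4l2 was at 1600.9 CPM in pericytes (1412 UMIs) and Ndufa4 at 40.8 CPM (36 UMIs), so that the paralog made up 97.5% of the pair. In the KO library they were at 883 CPM (203 UMIs) and 113 CPM (26 UMIs), a share of 88.6%. Ndufa4l2 was thus the most abundant member of pericytes in the first library. It was seen in 187 of 195 pericytes (95.9%), and in 76.2% of them after each cell was thinned to 1000 UMIs. In the KO library 38 of 52 pericytes (73.1%) held it, 68.9% after thinning. The background share, taken from general capillary cells, was 0.483% and 0.674% after thinning.

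Other mural and fibroblast gates held Ndufa4l2 beside Ndufa4 and at a lower level. Smooth muscle had 101 CPM in the control library and 39.9 CPM in the KO library, and adventitial fibroblasts had 59.7 and 30.1 CPM. Lymphatic cells had no UMI of it in either library, and with 182 and 186 CPM they were also, after pericytes, the lowest compared gate for Ndufa4. Between libraries Ndufa4l2 was lower in KO pericytes by a log2 ratio of -0.86 (95% counting interval -1.08 to -0.64), in smooth muscle by -1.34 and in adventitial fibroblasts by -0.99. In smooth muscle its UMIs lay in 34 of 238 control and 21 of 190 KO cells. After thinning 6.41% and 4.62% of these cells held it (15 and 8 cells), with overlapping counting intervals. In adventitial fibroblasts the shares after thinning were 5.33% and 2.95% (25 and 9 cells). Pericytes with at least 5000 UMIs showed the same order, 1616 and 921 CPM (74 and 19 cells). In aerocytes the ratio was 1.24 (0.72 to 1.79), at levels of only 3.70 and 8.75 CPM (42 and 117 UMIs). The shares of aerocytes that held it after thinning were close, 0.665% and 0.615%. Ndufa4 in pericytes was higher in the KO library, with a log2 ratio of 1.47 (0.68 to 2.24) that rests on 36 and 26 UMIs.

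AT2 cells expressed Cox6a2 (ENSMUSG00000030785, chr7:128205435-128206387), the isoform of complex IV subunit 6A known from heart and skeletal muscle. In the control AT2 gate it was at 242 CPM (2280 UMIs), above the general form Cox6a1 at 214 CPM (2018 UMIs). In the KO AT2 gate Cox6a2 was at 134 CPM (289 UMIs) and Cox6a1 at 212 CPM (459 UMIs). The restricted form was thus 53.1% of the pair in the control library and 38.6% in the other, a log2 ratio of -0.86 (-1.04 to -0.68) for Cox6a2, the only member past a log2 ratio of -0.5 in the AT2 gate, while Cox6a1 was nearly equal.

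Cox6a2 UMIs were found in 364 of 524 control AT2 cells (69.5%, and 18.8% after thinning) and in 62 of 430 KO AT2 cells (14.4%, and 5.43% after thinning). General capillary cells, which had 1.89 and 1.37 CPM, held it in 0.161% and 0.117% after thinning. The libraries' AT2 cells differed greatly in depth, with medians of 20044 and 1512.5 UMIs. Among AT2 cells with at least 5000 UMIs the levels were 243 and 164 CPM, and among those with under 2000 UMIs 104 and 34.2 CPM (6 and 11 UMIs), so the order was the same in both classes. Sftpc, the surfactant protein C gene, was at 187990 and 102260 CPM in the AT2 gates, and Cox6a2 stood at 1.29 and 1.31 UMIs per 1000 Sftpc UMIs over all cells of the gates. Within classes of depth this ratio differed. It was 1.61 and 0.532 among cells with under 2000 UMIs, where Sftpc was at 64209 and 64248 CPM. In cells with 2000 to under 5000 UMIs (14 Cox6a2 UMIs in each library) it was 1.78 and 0.668, and in cells with at least 5000 UMIs 1.29 and 1.47.

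Alveolar fibroblasts, the fibroblasts that lie beside AT2 cells, carried 2 further restricted isoforms of complex IV. Cox6b2, best known from testis, was at 165 CPM in the control library (420 UMIs) and 195 CPM in the KO library (160 UMIs), which was 37.4% and 43.5% of the sum with the general form Cox6b1. Adventitial fibroblasts had 69.1 and 48.0 CPM, alveolar macrophages of the KO library 60.4 CPM, and general capillary cells 2.93 and 3.67 CPM. In AT2 cells Cox6b2 was at 17.1 and 36.5 CPM (161 and 79 UMIs), a log2 ratio of 1.09 (0.69 to 1.49). The share of AT2 cells that held it after thinning did not differ in this way, at 1.67% and 1.71% (8 and 6 cells).

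Cox8b, the muscle form of the smallest complex IV subunit, was at 42.4 and 30.5 CPM in alveolar fibroblasts (108 and 25 UMIs) and at 27.9 and 30.5 CPM in lymphatic cells (17 and 12 UMIs), where general capillary cells had 0.521 and 0.602 CPM. It stayed far below the general form Cox8a in each gate, at most 6.42% of the pair in alveolar fibroblasts. Cox7a1, the muscle form of subunit 7A, was low in all compared gates, and its highest value in the control library, 31.7 CPM in AT1 cells, rests on 18 UMIs, against 1 UMI in the other library.

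**Figure D2:**
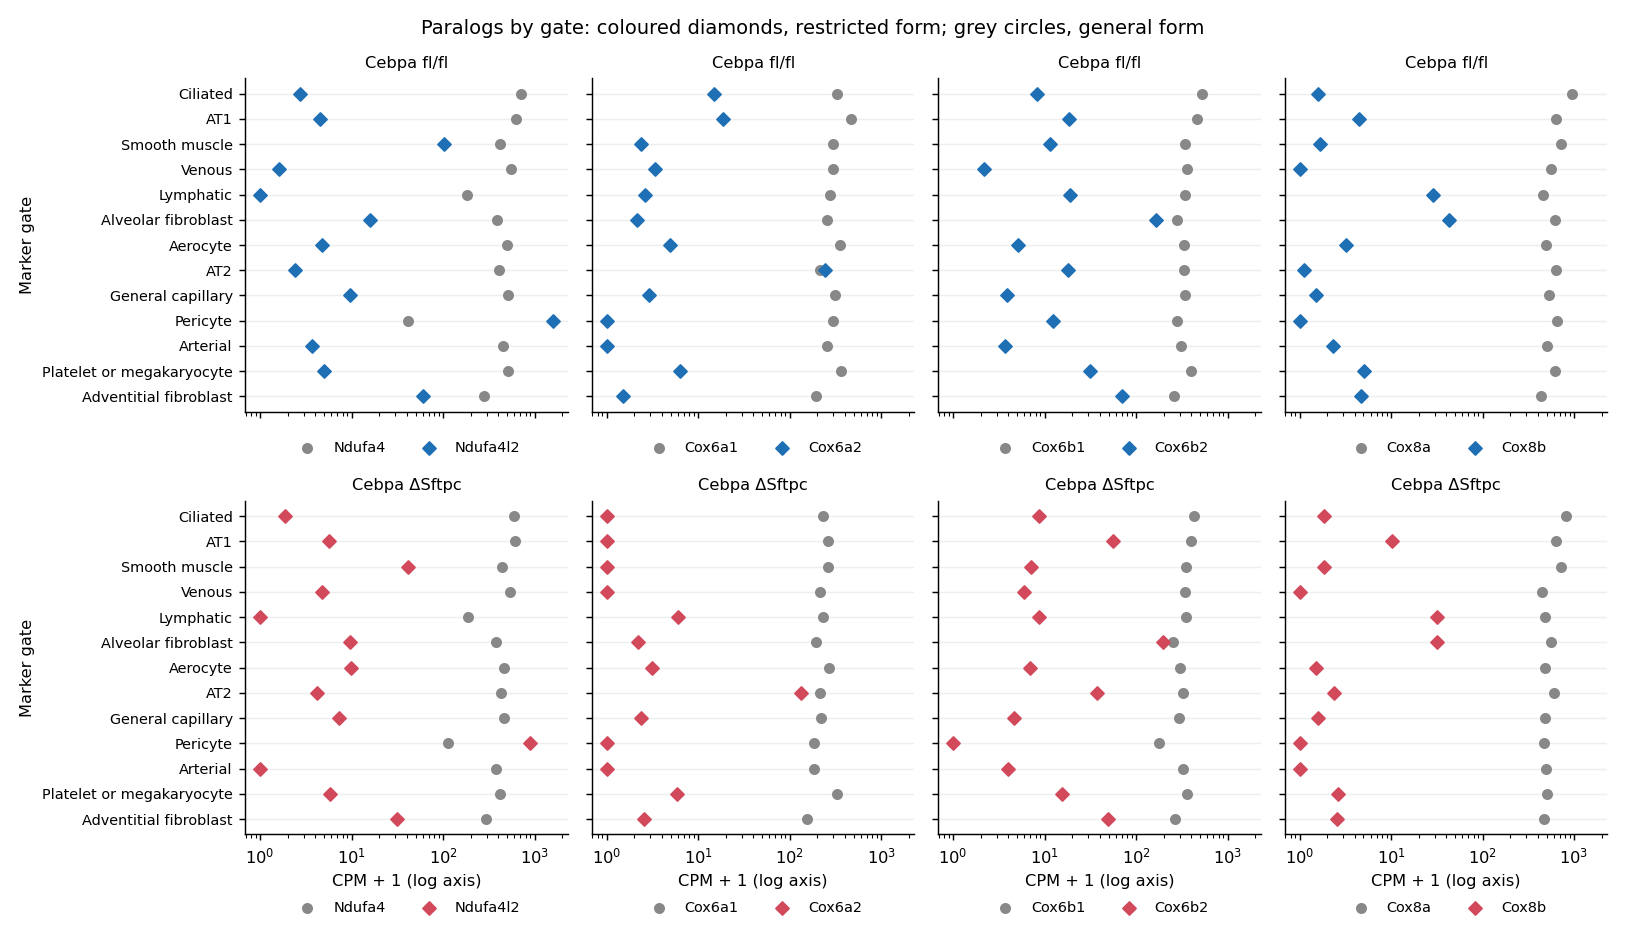
Level of 4 pairs of paralogs in the 13 compared gates, as CPM plus 1 on a log axis, with the general form in grey and the restricted form in blue (Cebpa fl/fl control, top row) or red (Cebpa ΔSftpc KO, bottom row). Ndufa4l2 exceeded Ndufa4 in pericytes only (1600.9 against 40.8 CPM and 883 against 113 CPM), and Cox6a2 approached or exceeded Cox6a1 in AT2 cells only (242 against 214 CPM and 134 against 212 CPM).

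Promoter sequences were examined for 1 pair of general and restricted forms, Cox8a and Cox8b. The table of promoters used here has no entry for Cox6a2 or Ndufa4l2. Promoters of most genes of oxidative phosphorylation are rich in CpG dinucleotides and are known for sites of the factors NRF1 and GABP, the latter of the ETS family. The following 250 bases before the RefSeq start of the gene (assembly GRCm38.p6, all on the minus strand, written 5′ to 3′ along the gene) are shown for a general subunit expressed in all gates, Cox6a1 (chr5:115348959-115349208), and for the general and the restricted form of subunit 8, Cox8a (chr19:7217617-7217866) and Cox8b (chr7:140900447-140900696). Capitals mark the letters GCGCATGC, from the core of the NRF1 motif, and CCGGAAG, from the ETS motif, on either strand.
Cox6a1: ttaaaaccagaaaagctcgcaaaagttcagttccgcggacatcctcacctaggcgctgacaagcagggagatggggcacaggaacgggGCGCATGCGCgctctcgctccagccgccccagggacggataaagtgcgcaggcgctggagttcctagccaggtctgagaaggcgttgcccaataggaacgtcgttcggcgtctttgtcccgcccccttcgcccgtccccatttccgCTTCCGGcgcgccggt
Cox8a: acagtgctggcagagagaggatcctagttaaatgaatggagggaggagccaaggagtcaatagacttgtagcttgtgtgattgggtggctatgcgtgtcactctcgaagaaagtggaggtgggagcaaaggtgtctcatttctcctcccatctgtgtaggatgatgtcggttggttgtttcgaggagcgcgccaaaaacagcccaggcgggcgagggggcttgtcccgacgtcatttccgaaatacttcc
Cox8b: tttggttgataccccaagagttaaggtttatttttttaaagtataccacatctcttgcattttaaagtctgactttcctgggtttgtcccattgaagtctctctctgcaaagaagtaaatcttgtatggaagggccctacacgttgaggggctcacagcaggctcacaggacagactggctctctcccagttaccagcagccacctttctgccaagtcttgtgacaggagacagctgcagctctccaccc
Cox6a1 had 26 CpG dinucleotides and matches to both sets of letters. Cox8a had 11 and Cox8b 1, and neither held a match. Of the 96 members 79 had a RefSeq promoter. GCGCATGC was found in 9 of them (11.4%), against 2.56% of 27025 genes, and CCGGAAG in 16 (20.3%), against 7.83%. The median number of CpG dinucleotides was 15 among members and 6 among all genes. A match describes the letters in this window and is not evidence of a bound factor.

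Platelets and megakaryocytes had their own balance of general subunits. Cox5a, a matrix-side subunit of complex IV, was at 793 CPM in the control library and 751 CPM in the KO library, against 169 and 207 CPM over all kept cells. After thinning, 52.1% and 51.4% of the platelet cells held a Cox5a UMI, against 14.4% and 15.5% of general capillary cells. Ndufa3 (506 and 457 CPM) and Ndufs4 (272 and 198 CPM), both of complex I, were also high there, in the gate whose summed members were among the lowest. Ciliated cells stood out for Ndufc2, a membrane-arm subunit of complex I at 621 and 506 CPM against 207 and 171 CPM in general capillary cells, and for the assembly factor Ndufaf3, at 161 and 124 CPM against 49.0 and 40.7 CPM.

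Between the libraries the summed level of the members differed little. It was lower in KO cells in 8 of the 13 gates, higher in 2, and within counting error in 3, with log2 ratios from -0.22 in ciliated cells to 0.06 in platelets and a median of -0.06. In AT2 cells, the cells in which Cebpa was targeted, the levels were 1.65% and 1.66%, a log2 ratio of 0.01 (-0.00 to 0.03). Sftpc alone was at 187990 and 102260 CPM in these gates, and the shares of all other genes depend on it. With Sftpc out of the total the control share would rise more than the KO share, so the ratio would be lower. Its value was not computed, and the part of Sftpc in the printed ratio was not tested. Relative to the median gene of the AT2 gate the ratio was -0.21. The ratio was -0.22 (-0.24 to -0.20) in ciliated cells, -0.20 in venous, -0.18 in pericytes, -0.17 in AT1 cells, -0.16 (-0.16 to -0.15) in general capillary cells, and -0.12 in aerocytes. It was between -0.06 and 0.03 in lymphatic, arterial, fibroblast and smooth muscle gates. The pericyte value includes Ndufa4l2. There the class of Ndufa4l2 and Cox7a2l stood at -0.74 and the assembly factors at -0.34, while complexes I to V lay between -0.16 and -0.06. Some of these values depended on the processing. Ciliated cells stood at -0.11 with mt-, ribosomal, hemoglobin and secretoglobin genes out of the total and at -0.09 relative to the median gene. With at least 3000 UMIs they stood at -0.24. In AT1 cells the ratio was 0.29 after free RNA was subtracted and -0.49 with cells weighted alike. The free share was set as the gate's Sftpc share over that of all kept cells (hemoglobin genes for the AT2 gate). It came to 73.5% in the KO AT1 gate, against 2.70% to 18.3% in the other compared KO gates. Sftpc from AT2 cells caught in the gate counts as free RNA here, so this share does not measure free RNA alone. Alveolar fibroblasts stood at -0.16 with cells weighted alike, arterial cells at -0.15 with the gate at 2 markers, and smooth muscle at -0.0503 without cells of 2 types and at -0.0711 with cells weighted alike.

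The mt- transcripts differed in the other direction in most of these gates. Their sum was higher in KO cells in 10 gates and lower in 1, AT1 cells at -0.26, with a median log2 ratio of 0.20 and the highest values in pericytes (0.54) and smooth muscle (0.50). Genes of the cytosolic ribosome, which like the members are short and abundant, were higher in 9 gates and lower in 4. Each share is taken of the same total, so the parts of a gate's total are not independent of each other.

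**Figure D3:**
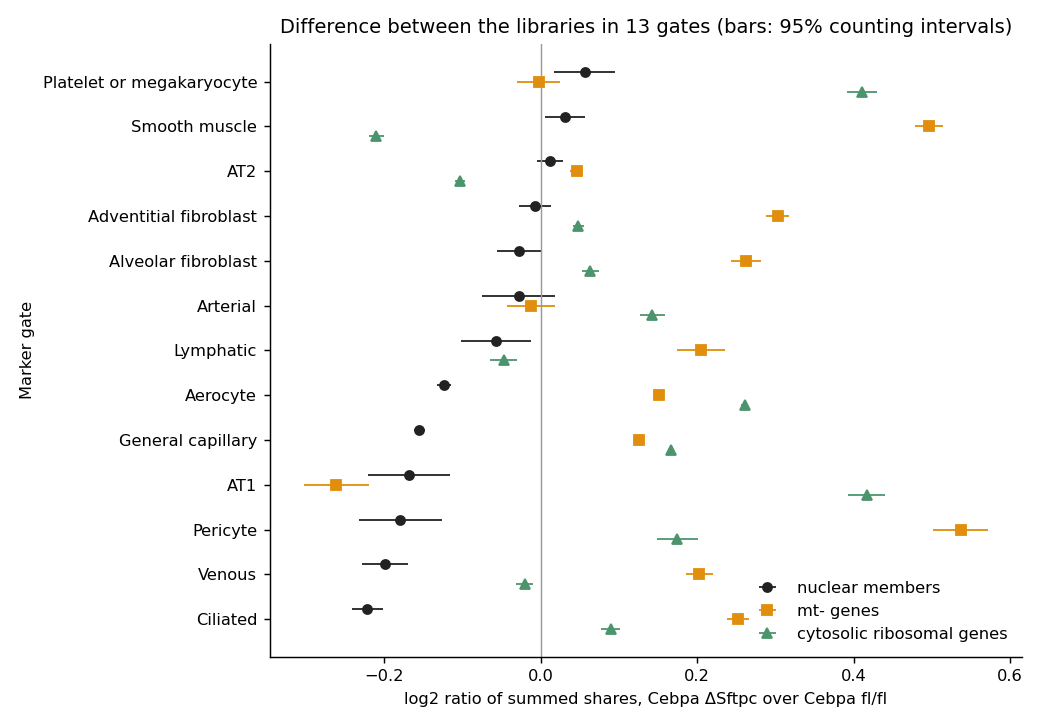
Log2 ratio (KO, Cebpa ΔSftpc, over control, Cebpa fl/fl) of the summed share of the nuclear members (black circles), the mt- genes (orange squares) and the cytosolic ribosomal genes (green triangles) in the 13 compared gates, with bars for 95% counting intervals. The nuclear members lay between -0.22 and 0.06, and the mt- genes were above 0 in 10 of 13 gates.

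Complex I was lower in KO cells in 8 gates and higher in none, and complex IV lower in 7 and higher in none. Complexes III and V were each lower in 4 gates and higher in 1, complex II was lower in 3 and higher in none, and the assembly factors were lower in 5 and higher in 1. The other gates lay within counting error. In general capillary cells the log2 ratio was -0.22 for complex I, -0.16 for complex IV, -0.12 for complex III and -0.09 for complex V.

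Single members were compared where a gene had at least 50 UMIs over both libraries, and a log2 ratio of 0.5 in size was taken as the mark, without a test. In AT2 cells 1 of 91 members was past it downward and 5 upward, against 4.74% and 26.3% of all 10268 genes. The median of all genes in this gate was 0.22 and that of the members 0.04, and the log2 ratio of the summed members relative to the median gene of the gate was -0.21. The lowest members were Cox6a2 (-0.86), Atp5d, the delta subunit of the ATP synthase (-0.33), and Ndufa3 (-0.30). The highest were the assembly factors Ndufaf1 (1.12, from 42 and 21 UMIs) and Sdhaf2 (0.70), with Cox6b2 (1.09) between them.

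In ciliated cells 6 of 87 members were past the mark downward and 0 upward, against 13.3% and 9.73% of all genes. Their median was -0.21 where that of all genes was -0.13. Ndufa9 (-0.69), Ndufaf8 (-0.66) and Ndufa3 (-0.58), all of complex I or its assembly, were the lowest, and Ndufa10 (0.37) and Cox7a2l (0.33), a factor that joins complexes III and IV into supercomplexes, the highest. In general capillary cells 2 of 93 were past the mark downward and 0 upward, against 5.97% and 10.9%. These were Ndufa3 (-0.52) and Cox6a1 (-0.51), with the median of the members at -0.15 and that of all genes at -0.00.

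In aerocytes 1 of 92 was past the mark downward and 2 upward (backgrounds 4.51% and 13.3%), with a median of -0.13 against 0.03. Cox6a2 was the lowest at -0.87, from 45 and 29 UMIs, and Ndufa4l2 the highest at 1.24. The Cox6a2 UMIs lay in 16 of 1784 control and 10 of 3130 KO aerocytes. After thinning Cox6a2 was held by 0.0605% and 0.109% of them (1 and 3 cells), which is not the order of the ratio. In adventitial fibroblasts the counts were 2 and 0 of 89 (6.79% and 9.31%), with Ndufa4l2 (-0.99) and Cox6b2 (-0.52) as the lowest. In smooth muscle they were 1 and 1 of 86 (10.1% and 10.3%), with Ndufa4l2 (-1.34) as the lowest and Cox5a (0.61) as the highest. In each of these 6 gates the share of members past the mark was therefore at or below that of all genes in both directions. Members and all genes were not matched for UMI counts, and ratios from few UMIs pass the mark more readily by counting error. Ratios below 0 were found for 79 of 93 members (84.9%) in general capillary cells, where 50.6% of all genes were below 0, for 75 of 87 (86.2%) in ciliated cells, against 64.0%, and for 73 of 92 (79.3%) in aerocytes, against 46.3%. In AT2 cells they were found for 36 of 91 members (39.6%), against 29.2% of all genes.

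**Figure D4:**
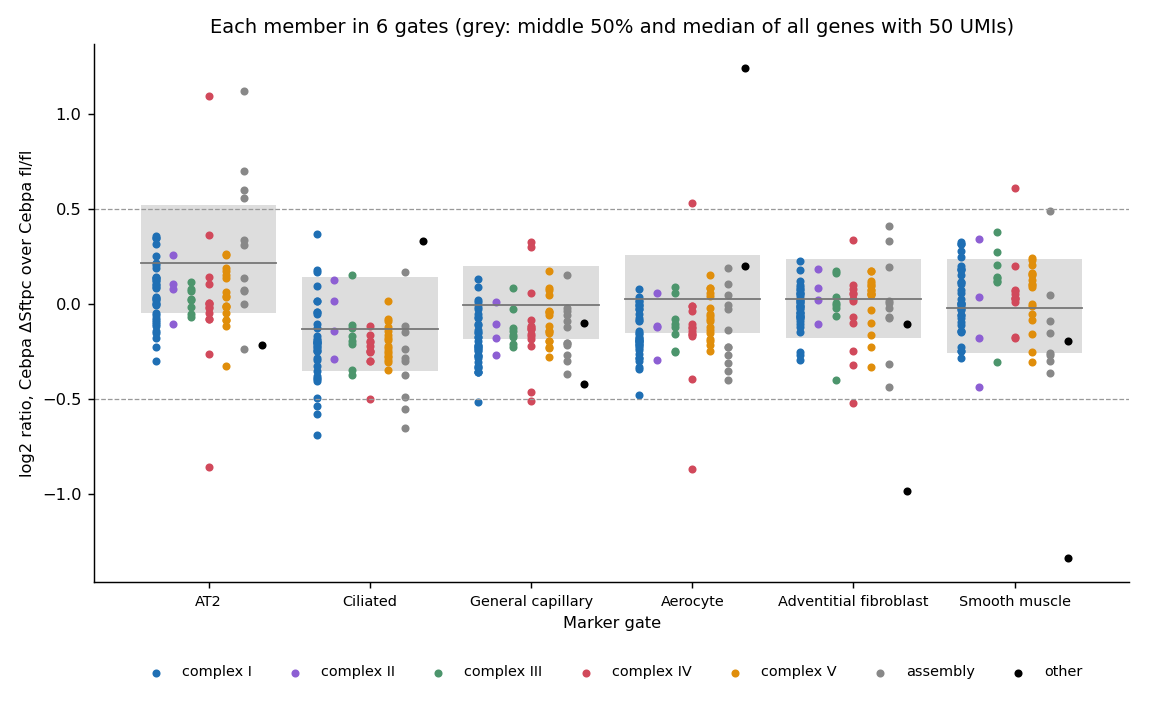
Log2 ratio (Cebpa ΔSftpc KO over Cebpa fl/fl control) of each member with at least 50 UMIs in the 6 gates with at least 1000000 UMIs in each library, coloured by complex. A grey band and line show the middle 50% and the median of all genes, and dashed lines a ratio of 0.5 in size. The members lay below the gate's median gene in AT2 cells (0.04 against 0.22), general capillary cells (-0.15 against -0.00) and aerocytes (-0.13 against 0.03).

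In the smaller gates single members rest on few UMIs. Some larger departures there had an interval clear of 0, beside those of Ndufa4 and Ndufa4l2. Downward ones included Ndufb4 in AT1 cells (-0.98, from 171 and 33 UMIs) and Cox7b in venous cells (-0.71, from 366 and 107 UMIs). Ndufa10 in arterial cells (-1.38, from 58 and 10 UMIs) and Ndufaf7 in alveolar fibroblasts (-0.92, from 88 and 15 UMIs) were also downward. So was Ndufaf3 in pericytes (-1.76, from 52 and 4 UMIs). Upward ones included Ndufab1 in AT1 cells (0.78, from 58 and 38 UMIs) and Ndufa8 in lymphatic cells (0.70, from 61 and 64 UMIs). Members named here are extremes of their gates, for which no share over all genes was computed. Pericytes held 882019 control and 229801 KO UMIs, and the UMI minimum was set over both libraries. Members low in the control library could thus miss it. In platelets 3 subunits of the ATP synthase were the highest members, Atp5c1 (0.64), Atp5g1 (0.63) and Atp5e (0.59, from 281 and 351 UMIs).

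Of the members with enough UMIs in all 13 compared gates, 3 had ratios below 0 in each of them. How many of all genes were below 0 in each gate was not counted, so this number has no background. Cox6a1 had a log2 ratio below 0 in 13 of 13 gates, with a median of -0.40, Ndufa3 in 13 of 13, with a median of -0.31, and Atp5j2, a subunit of the ATP synthase, in 13 of 13, with a median of -0.10. Ndufa7 was below 0 in 12 of 13 gates with a median of -0.30. Cox5a was above 0 in 9 of 13 gates, with a median of 0.23, and Atp5g1, which encodes the membrane ring subunit c of the ATP synthase, was below 0 in 5 of 13 and had a median of 0.17. The gates come from the same 2 libraries and are not independent of each other.

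Other genes of mitochondria and energy metabolism were compared in the same way. In ciliated cells the mitochondrial ribosomal proteins had a median of -0.26, with 17 of 77 past the mark downward and 0 upward, against 13.3% and 9.73% of all genes, and the lowest was Mrpl50 (-1.22). In general capillary cells their median was -0.13, with 0 of 78 past the mark, and the 13 tricarboxylic acid cycle genes had a median of -0.00 with none past it. Of 14 glycolysis genes in general capillary cells 3 were past the mark upward and 0 downward, where 10.9% and 5.97% of all genes were, with a median of 0.20 and with Hk2, an inducible hexokinase, the highest at 1.59. In aerocytes the count was the same, against 13.3% and 4.51% of all genes, and Hk2 stood at 3.01. In AT2 cells 3 of 15 glycolysis genes were past it upward and 1 downward, against 26.3% and 4.74% of all genes, from Pfkp at 1.56 to Aldoc at -0.72, and Hk2 stood at -0.47. Among the regulators of mitochondrial genes Ppargc1a, the coactivator PGC-1alpha, was the lowest in AT2 cells (-0.70) and in general capillary cells (-0.62). Pprc1, a related coactivator, was the highest in general capillary cells (1.12) and in aerocytes (1.10), and Gabpa, the DNA-binding part of GABP, was the highest in AT2 cells (0.74). In AT2 cells 1 of 9 regulators was past the mark downward and 4 upward, against 4.74% and 26.3% of all genes, and of the 5 regulators with at least 200 UMIs 1 was past it upward. In general capillary cells the counts were 1 and 1 of 11, against 5.97% and 10.9%. Of the 13 mt- genes mt-Atp8 had the highest ratio in the AT2 (0.64), ciliated (0.89), general capillary (0.68) and aerocyte (0.75) gates.

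The libraries differed in depth, and 28.5% of the control and 53.1% of the KO cells had fewer than 3000 UMIs. In capillary and fibroblast gates the difference in the members was larger among shallow cells. Among general capillary cells with under 2000 UMIs the members took 1.79% and 1.45% (log2 ratio -0.30), and among those with at least 5000 UMIs 1.76% and 1.60% (-0.14). In aerocytes the ratio was -0.47 among shallow cells (2.09% and 1.504%) and -0.09 among deep cells, and in AT1 cells with under 2000 UMIs it was -0.56, with 3.18% and 2.15%. Alveolar fibroblasts stood at -0.51 among shallow cells (2.29% and 1.61%) and at 0.03 among deep cells, and adventitial fibroblasts at -0.34 and -0.01. In AT2 cells it was 0.01 in both of these classes and 0.10 (0.01 to 0.20) in cells with 2000 to under 5000 UMIs, and in ciliated cells with at least 5000 UMIs -0.25. Sftpc, which is part of the total, was at 189370 and 111670 CPM in the deep AT2 cells and at 64209 and 64248 CPM in the shallow ones. Ratios without it were not computed. The mt- level differed with depth too: in general capillary cells its ratio was -0.62 among shallow cells and 0.22 among deep ones, and the part of depth in the differences was not tested further.

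**Figure D5:**
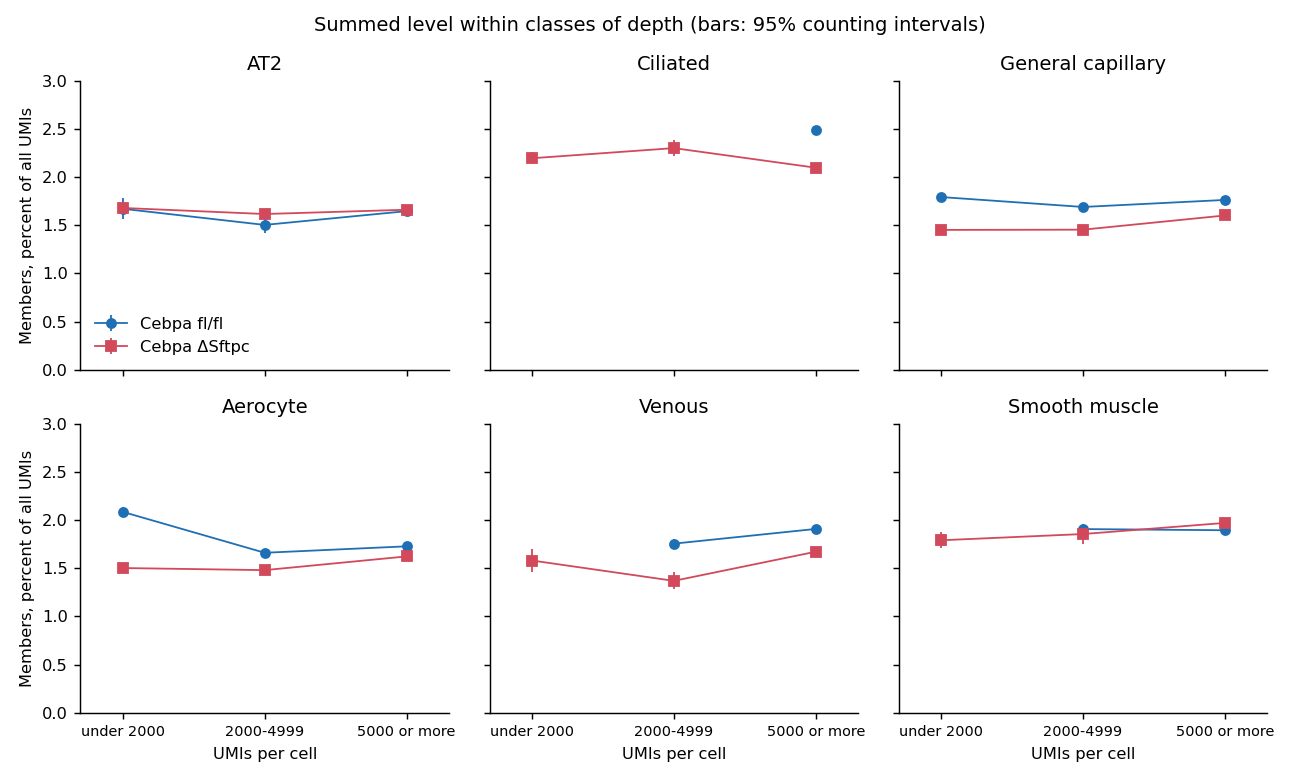
Summed level of the members, as percent of all UMIs, in cells with under 2000, from 2000 to under 5000 and 5000 or more UMIs, for 6 gates and both libraries (Cebpa fl/fl control blue circles, Cebpa ΔSftpc KO red squares), with bars for 95% counting intervals and with classes of under 20 cells left out. General capillary cells of the KO library lay lower in each class. AT2 cells of the libraries lay together among shallow and deep cells, with Sftpc in the total.

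After each cell was thinned to 1000 UMIs, general capillary cells held on average 17.4 ± 5.84 (SD over 4964 cells) and 15.2 ± 5.11 (SD over 3410 cells) UMIs of the members, where counting error alone would give SDs of 4.17 and 3.90. Ciliated cells held 24.8 and 21.9, AT2 cells, with Sftpc in the total, 16.5 and 16.9, and neutrophils 10.9. Of all thinned cells 0.04% and 0.09% held none, so these genes were seen in nearly every cell. The thinning left out 905 and 1505 shallower cells.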

How the data were processed

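The data were 2 droplet-based 3′ scRNA-Seq libraries of mouse lung cells, 1 per genotype. The authors deposited raw UMI counts, whole numbers per gene and barcode, not normalized. The submitters' processing notes name Cell Ranger 6.1.1 and the genome mm10, while the header of the count files names Cell Ranger 5.0.0. The labels mention sorting, whereas the methods describe whole-lung suspensions, so the population loaded is uncertain.

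Cells with at least 200 genes and at most 20% mt- counts were kept. The files hold 11721 and 13373 barcodes, to which this filter, taken from the study, had not been applied. Gates used marker lists, with at least 3 markers of 1 type detected and no tie, and cells with at least 50% hemoglobin UMIs were set apart as erythroid. No doublet caller was run, and as an alternative cells that reached the marker minimum of a second type were left out. UMIs were summed per gate and library and divided by all UMIs. Ratios are on the log2 scale, KO (Cebpa ΔSftpc) over control (Cebpa fl/fl). Each gene's sum was floored at 3 counts, and intervals are exact 95% Poisson or conditional binomial ones that cover counting error only. With 1 library per genotype no test was possible. Single genes needed 50 UMIs over both libraries. Counts over all genes are given for the 6 gates with at least 1000000 UMIs in each library. Scripts were checked on simulated counts, with Python 3.11.15, numpy 2.4.6, scipy 1.17.1, pandas 2.3.3 and matplotlib 3.10.9.

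The genes named are the highest and lowest of each complex, the isoform pairs, those most variable between gates, and the 3 highest and lowest ratios per gate. Ndufc2, Ndufs4, the platelet values and members compared over all gates were chosen after their values were seen. The members, markers and gene lists were chosen with earlier results of these data known, and the form of the gating rule was settled on the counts. Promoters are from RefSeq (GRCm38.p6). A result for 1 gene is not reported here.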

Additional observations from a re-analysis of the deposited data

Results flagged for a closer look

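The summed members moved in opposite directions in different gates. The log2 ratio was 0.0311 in smooth muscle and 0.0559 in platelets or megakaryocytes, where it was -0.22 in ciliated cells. For the mt- genes AT1 cells stood at -0.26, against values above 0 in 10 gates. In the AT1 gate of the KO library 61 cells were counted. Ndufa4l2 was lower in the KO library in pericytes (-0.86), smooth muscle (-1.34) and adventitial fibroblasts (-0.99) and higher in aerocytes (1.24). After thinning it was held by 0.665% of control and 0.615% of KO aerocytes, and by 6.41% of control and 4.62% of KO smooth muscle cells. With 1 library per genotype these differences between gates were not tested.

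Cells outside the gates were also looked at. The 1284 ungated control cells held 1.91% of their UMIs in the members and the 2213 ungated KO cells 1.60%. Among them was a small set with genes of cardiac muscle, found through its high level of the members. It was defined afterwards as cells with UMIs of at least 6 of Myl7, Myl4, Tnnt2, Tnni3, Sln, Actc1, Tnnc1 and Myh6. In the control library 22 cells met this rule, 20 of them ungated, and the members took 15.2% of their UMIs, from 2.16% to 18.9% per cell. Of these, 20 cells were at 10% or more, and 0 of the other 11465 cells were. In the KO library 2 cells met the rule, with 3.75% of their summed UMIs. The single cells were at 2.38% and 17.0%. In the 22 cells Cox6a2 was at 6540 CPM against 107 CPM for Cox6a1, Cox8b at 2789 CPM and Cox7a1 at 2189 CPM. These cells held 50.5% of all Cox8b, 46.9% of all Cox7a1 and 16.3% of all Cox6a2 UMIs of their library.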

How the results depend on the processing

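Of 181 values recomputed under 13 alternatives, 136 stayed within the counting interval of the main value, 40 moved out of it and 5 turned their direction. A turn was counted only where the main interval excluded 0. In AT2 cells the main interval held 0, so values below 0 there were not counted as turned. The ratio of AT1 cells became 0.29 after free RNA was subtracted. That step set the free share from Sftpc and took 73.5% of the KO profile of that gate. Without cells that carry markers of 2 types, a step that removed 410 of 524 control and 254 of 430 KO AT2 cells, lymphatic cells stood at 0.0134 and smooth muscle at -0.0503. Alveolar fibroblasts with at least 3000 UMIs stood at 0.0173, and smooth muscle with cells weighted alike at -0.0711. In AT2 cells the ratio was 0.0314 with mt-, ribosomal, hemoglobin and secretoglobin genes out of the total, -0.0634 without cells of 2 types, 0.0308 with cells weighted alike and -0.21 relative to the median gene. In general capillary cells these were -0.15 for cells with at least 3000 UMIs, -0.13 with the smaller total, -0.21 without cells of 2 types and -0.20 with cells weighted alike. Over all kept cells they were -0.13 at 3000 UMIs, -0.10 with the smaller total, -0.20 weighted alike, -0.0640 relative to the median gene and -0.13 without the cells with cardiac muscle genes, the last chosen after seeing the data. The 21 members past the mark in the 6 gates became 32 with at least 20 UMIs and 12 with at least 200. The cause of these moves was not tested. No paired analysis was possible because each genotype had 1 library. No replicate could be left out for the same reason. The shallow AT2 and ciliated cells of the KO library, with medians of 1512.5 and 1520 UMIs, limit the single members there.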
